A study of Mus musculus with 16 samples.

Results

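The genes described here are 10 chemokine genes of mouse skin: Ccl2, Ccl7, Ccl8, Ccl11, Ccl12, Ccl20, Ccl27a, Cxcl1, Cxcl2 and Cxcl5. They were taken by name from the 24421 genes of the deposited count table, with no cutoff on their values, and all 10 were found. The list was chosen with earlier results of these data known. The RNA came from skin of female SKH-1 mice, a hairless strain used to study how ultraviolet light causes skin tumors. UVB-exposed mice received 60 mJ/cm2 in each of 2 sessions per week, and their epidermis was sampled at weeks 2, 15 and 25 and their tumors at week 25. Unexposed control mice of the same strain and sex gave epidermis at the same weeks and whole skin at week 25. Each of these 8 groups has 2 libraries, numbered 0 and 1. The labels do not give the age of the mice, and do not say whether a library is 1 animal, so every p-value measures only the spread between the libraries, which may be technical.

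Chemokines are small secreted proteins that draw leukocytes into tissue by binding receptors on their surface. Ccl2, Ccl7 and, in the mouse, Ccl12 bind Ccr2 and draw monocytes. Ccl7 also binds Ccr1 and Ccr3, Ccl11 (eotaxin) binds Ccr3 and draws eosinophils, and mouse Ccl8 binds Ccr8. Cxcl1, Cxcl2 and Cxcl5 bind Cxcr2 and draw neutrophils. Ccl20 binds Ccr6, found on interleukin-17-producing T cells and some dendritic cells, and Ccl27a, made by keratinocytes, binds Ccr10 on skin-homing T cells.

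The genes lie in groups on the chromosomes (mm10 coordinates of the deposited table). On chromosome 11, Ccl2 (chr11:82035577-82037452), Ccl7 (chr11:82045712-82047523), Ccl11 (chr11:82057832-82062955), Ccl12 (chr11:82101845-82103399) and Ccl8 (chr11:82115185-82116799) follow each other on the plus strand within 81.2 kb. On chromosome 5, Cxcl5 (chr5:90759298-90761625), Cxcl1 (chr5:90891245-90893115) and Cxcl2 (chr5:90903899-90905938) lie within 147 kb, also on the plus strand. Ccl20 (chr1:83116766-83119167) and Ccl27a (chr4:41769470-41774176, minus strand) stand apart from both groups.

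RefSeq promoter sequences (GRCm38.p6, the assembly called mm10) were matched for 6 of the 10 genes, and 5 are shown to set neighbouring genes and the genes with an NF-kappaB motif side by side. Each is the 250 bases before the transcription start on the plus strand. Capitals mark a TATAAA box in Ccl8 (chr11:82114935-82115184) and Ccl12 (chr11:82101595-82101844), neighbours of which Ccl8 was abundant in exposed epidermis and Ccl12 nearly absent. They mark an NF-kappaB motif in Cxcl1 (chr5:90890995-90891244) and Cxcl2 (chr5:90903649-90903898), which were high in tumor and low in epidermis, and in Ccl20 (chr1:83116516-83116765), which was lower after UVB.
Ccl8: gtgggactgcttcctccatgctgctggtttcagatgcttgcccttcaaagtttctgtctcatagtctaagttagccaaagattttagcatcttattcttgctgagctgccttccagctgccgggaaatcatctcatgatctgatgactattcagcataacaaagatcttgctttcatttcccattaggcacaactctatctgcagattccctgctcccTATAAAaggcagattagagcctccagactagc
Ccl12: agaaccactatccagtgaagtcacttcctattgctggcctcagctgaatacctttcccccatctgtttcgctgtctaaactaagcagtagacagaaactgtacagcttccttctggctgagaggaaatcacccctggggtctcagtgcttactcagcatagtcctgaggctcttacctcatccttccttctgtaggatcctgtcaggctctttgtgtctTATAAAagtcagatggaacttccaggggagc
Cxcl1: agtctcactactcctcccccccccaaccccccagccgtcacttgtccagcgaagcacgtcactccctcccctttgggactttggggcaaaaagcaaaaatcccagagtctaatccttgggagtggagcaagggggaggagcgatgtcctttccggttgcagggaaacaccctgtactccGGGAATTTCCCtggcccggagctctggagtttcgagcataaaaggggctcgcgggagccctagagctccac
Cxcl2: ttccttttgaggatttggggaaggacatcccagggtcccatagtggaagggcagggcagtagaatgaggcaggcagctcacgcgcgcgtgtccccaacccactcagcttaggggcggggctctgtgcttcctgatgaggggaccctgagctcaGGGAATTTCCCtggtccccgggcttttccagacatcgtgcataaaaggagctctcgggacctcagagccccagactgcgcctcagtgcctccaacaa
Ccl20: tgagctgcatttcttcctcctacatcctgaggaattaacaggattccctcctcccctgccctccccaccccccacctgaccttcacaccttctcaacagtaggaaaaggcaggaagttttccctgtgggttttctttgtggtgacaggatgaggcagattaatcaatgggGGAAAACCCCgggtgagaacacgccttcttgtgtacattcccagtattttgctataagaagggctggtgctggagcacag
The same 11 letters GGGAATTTCCC stand 71 to 61 bases before the start of Cxcl1 and 97 to 87 bases before that of Cxcl2. In each gene they hold 2 overlapping NF-kappaB matches, 1 on each strand. Ccl20 has 1 match on the minus strand, read on the plus strand as GGAAAACCCC, 80 to 71 bases before its start. The NF-kappaB motif was searched on both strands and was present in 7.25% of 32851 RefSeq promoter windows of this length. TATAAA was present in 12.4% of them on either strand, and stood 32 to 27 bases before the start in Ccl8 and 31 to 26 in Ccl12. Neither TGANTCA (the AP-1 motif, in 6.75% of windows) nor the core of the interferon-stimulated response element (in 2.98%) was found on either strand of the 5 windows. These matches describe letters only.

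Library totals ran from 2905165 counts in week 2 control 1 to 7959503 in whole skin control 0, so a single count is worth more CPM (counts scaled to a common library size by TMM and edgeR's cpm) in the shallow library. Libraries of a group differed by more than counting noise in every group, most in whole skin control, where chi-square per degree of freedom over genes was 48.9. Whole skin control 0 held less of the macrophage, neutrophil, fibroblast and eosinophil marker sums than control 1. Krt5, a basal keratinocyte keratin, was at 281 to 601 CPM over the 16 libraries. Col1a1, a dermal collagen, was at 0.187 to 24.7 CPM in epidermis and at 52.3 to 227 CPM in tumor and whole skin. Tumor libraries also held Acta1, a skeletal muscle actin, at 388 and 376 CPM, against 260 and 487 CPM in whole skin, so both tissues were bulk samples with muscle in them. The authors counted reads after removing duplicates, and no gene of 500 bases or more passed 1.83 to 2.11 counts per base in a library.

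**Figure D1:**
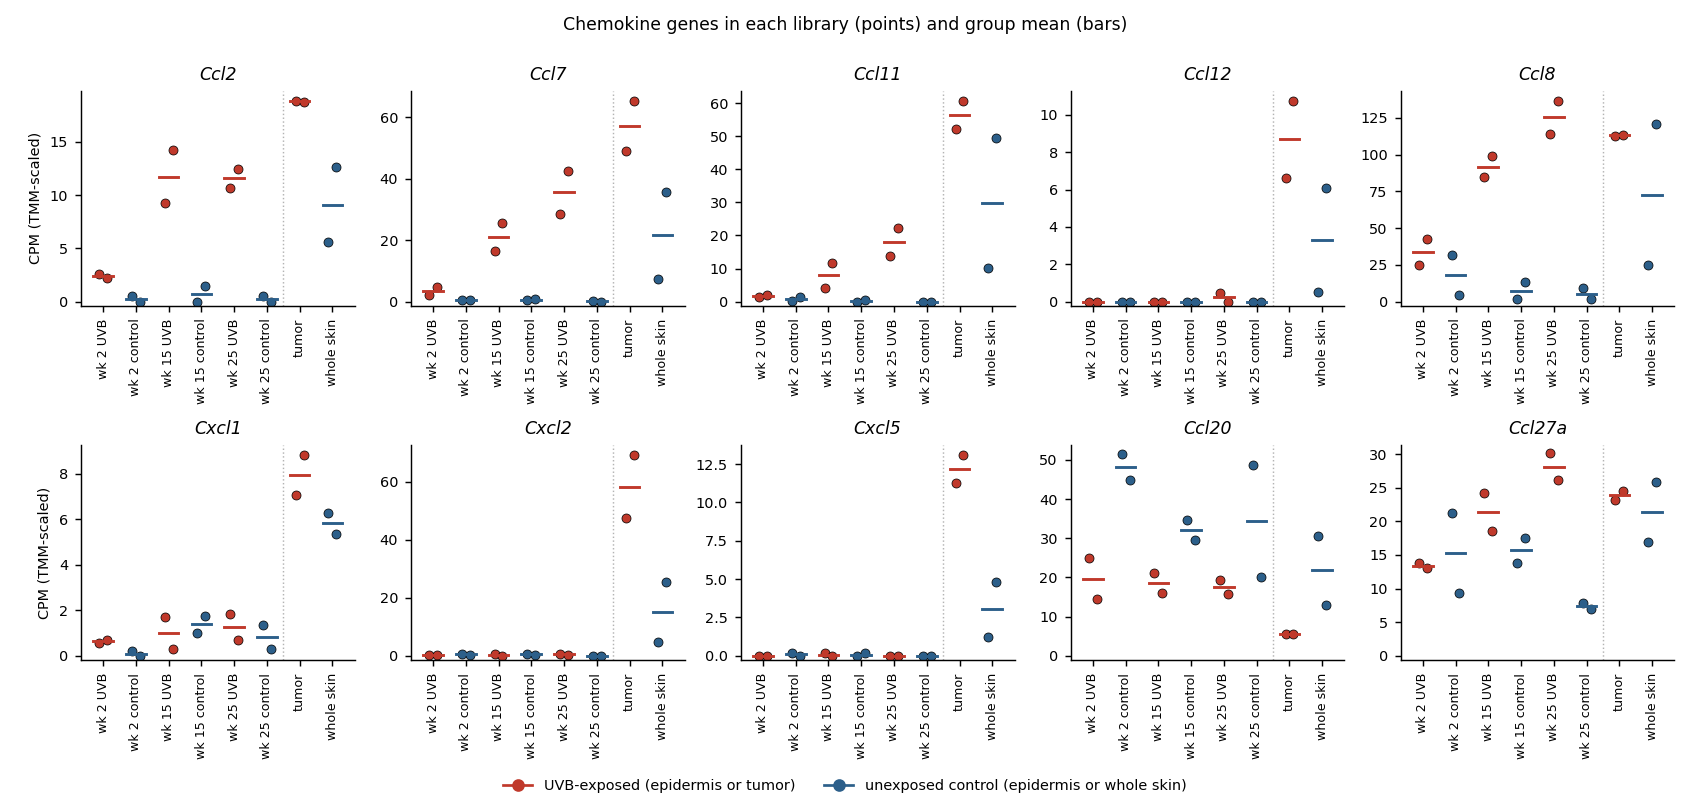
CPM of each chemokine gene (vertical axes, each starting at 0 and scaled to its gene) in the 2 libraries of each of the 8 groups (points, with bars at group means). UVB-exposed samples are red and controls blue. The means of Ccl7, Ccl8 and Ccl11 are higher at each later week in exposed epidermis, while Cxcl2, Cxcl5 and Ccl12 stay near 0 in epidermis and reach 58.3, 12.2 and 8.69 CPM on average in tumor.

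UVB-exposed epidermis gained transcripts of the monocyte and eosinophil chemokines Ccl2, Ccl7, Ccl8 and Ccl11. Ccl7 was already higher at week 2, and all 4 were higher at weeks 15 and 25. Of the 10 genes, 7 passed the filter on low counts in epidermis, while Ccl12, Cxcl2 and Cxcl5 did not. Ccl2, Ccl7 and Ccl11 had at most 9 counts in any control library and passed through the exposed ones, so counts over the genes that passed are a description. At week 2, 1 gene was called higher and 1 lower at an adjusted p under 0.05, where 17.8% of all 13478 genes tested were called (8.09% higher and 9.74% lower). At week 15, 4 were higher and 0 lower, against 3.49% of genes called in either direction (1.85% higher and 1.64% lower). At week 25, 5 were higher and 0 lower, against 21.5% (10.6% higher and 10.9% lower). Both exposed libraries lay above both controls for 4, 5 and 6 of the 10 genes at weeks 2, 15 and 25, and below both for 2, 1 and 1. Over all genes tested the groups were apart in either direction for 60.3% at week 2, 52.4% at week 15 and 70.6% at week 25. In bulk samples, more cells of a type and more RNA per cell cannot be told apart.

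Ccl2, the main monocyte attractant, had 14 and 13 counts at week 2 in UVB epidermis, against 3 and 0 in control epidermis. At week 15 it had 59 and 92 counts in UVB epidermis (9.22 and 14.3 CPM), against 0 and 9 in control epidermis. At week 25 it had 70 and 70 counts in UVB epidermis (10.7 and 12.5 CPM), against 3 and 0 in control epidermis. The exposed and control libraries did not overlap at any week, and exposed epidermis at weeks 15 and 25 lay at one level. The ratio at week 2 was 6.19 (95% counting interval 1.91 to 31.9) and was not called (edgeR adjusted p = 0.132). At week 15 the fitted log2 difference was 3.87 ± 0.83 (SE, edgeR adjusted p = 0.0353). At week 25 the ratio was 47.7 (counting interval 15.99 to 234, edgeR adjusted p = 0.00586), a call that held in all 11 alternatives. The week 15 call ended without control 0, UVB 0 or UVB 1, where calls over all genes also fell. Leaving out 1 library, the week 15 log2 difference ran from 3.01 to 9.03.

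Ccl7, a ligand of Ccr2, Ccr1 and Ccr3, gave the clearest separation. It had 11 and 28 counts in UVB epidermis at week 2, against 3 and 1 in control epidermis. The numbers were 105 and 166 in UVB epidermis at week 15 (16.4 and 25.7 CPM), against 2 and 6 in control epidermis. They were 188 and 239 in UVB epidermis at week 25 (28.7 and 42.7 CPM), against 1 and 0 in control epidermis. Every exposed library held more Ccl7 than every control library of its week, and control epidermis never passed 6 counts. The log2 difference was 2.67 ± 0.75 at week 2 (edgeR adjusted p = 0.0332) and 4.85 ± 0.57 at week 15 (edgeR adjusted p = 0.00366). At week 25 the ratio was 437, with a counting interval of 77.9 to 17282 that reflects the single control count (edgeR adjusted p = 0.000469). The calls at weeks 15 and 25 held in all 11 alternatives. The week 2 call ended without control 0 (edgeR adjusted p = 0.0892), without control 1 (0.108) and without UVB 1, where the log2 difference was 1.93 (0.218).

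Ccl11, the eosinophil attractant, had 8 and 11 counts in UVB epidermis at week 2, against 1 and 3 in control epidermis. There were 27 and 76 counts in UVB epidermis at week 15 (4.22 and 11.8 CPM), against 0 and 3 in control epidermis. At week 25 there were 90 and 124 counts in UVB epidermis (13.7 and 22.1 CPM), against 0 and 0 in control epidermis. Exposed and control libraries did not overlap at any week. The log2 difference at week 2 was 1.56 ± 1.06 and was not called (edgeR adjusted p = 0.316). The ratio at week 15 was 30.2 (counting interval 10.03 to 149, edgeR adjusted p = 0.0302). At week 25 Ccl11 was at least 72.9-fold higher, taking 3 counts over the control group as its upper limit (edgeR adjusted p = 0.00256, held in all 11 alternatives). The week 15 call ended without control 0 and without UVB 1, where calls over all genes also fell. Leaving out 1 library, the week 15 log2 difference ran from 3.88 to 8.47.

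Ccl8, a Ccr8 ligand in the mouse, was the most abundant of the 10 per length of transcript in exposed epidermis at each week. It had 134 and 246 counts in UVB epidermis at week 2 (25.2 and 42.7 CPM), against 167 and 10 in control epidermis (31.8 and 4.23 CPM). At week 15 it had 543 and 637 counts in UVB epidermis, against 8 and 84 in control epidermis. At week 25 it had 749 and 766 counts in UVB epidermis (114 and 137 CPM), against 54 and 11 in control epidermis (9.11 and 1.69 CPM). The groups overlapped at week 2, where control 0 lay between the exposed libraries, and were apart at weeks 15 and 25. The log2 difference was 0.78 ± 0.80 at week 2 (edgeR adjusted p = 0.511), 3.54 ± 0.86 at week 15 (edgeR adjusted p = 0.0491) and 4.52 ± 0.90 at week 25 (edgeR adjusted p = 0.0082). The week 15 call ended without control 0, UVB 0 or UVB 1, and the week 25 call without control 1 (log2 3.74). Calls over all genes fell in each of these fits. The week 15 call also ended with no scaling factors (edgeR adjusted p = 0.0606). Ccl8 was also the gene nearest the limit that duplicate removal sets. It had 1.466 and 1.499 counts per base in UVB epidermis at week 25, ranking 44 and 35 among 22658 genes of at least 500 bases. Its part in the size of these differences was not tested.

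Ccl12, a Ccr2 ligand whose gene lies between those of Ccl11 and Ccl8, had 3 and 0 counts in UVB epidermis at week 25. It had 0 counts in the other 10 epidermis libraries, so no fold is given. Its neighbours on both sides held 90 to 766 counts in the same exposed libraries. Summed over the 5 genes of the cluster, UVB epidermis held 31.4 and 51.7 CPM at week 2, against 33.1 and 5.93 CPM in control epidermis. The sums were 115 and 151 CPM in UVB epidermis at week 15, against 1.97 and 16.4 CPM in control epidermis. At week 25 they were 168 and 214 CPM in UVB epidermis, against 9.78 and 1.69 CPM in control epidermis. Ccl8 made up 63.9 to 82.6% of the cluster's counts in the 6 exposed epidermis libraries.

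**Figure D2:**
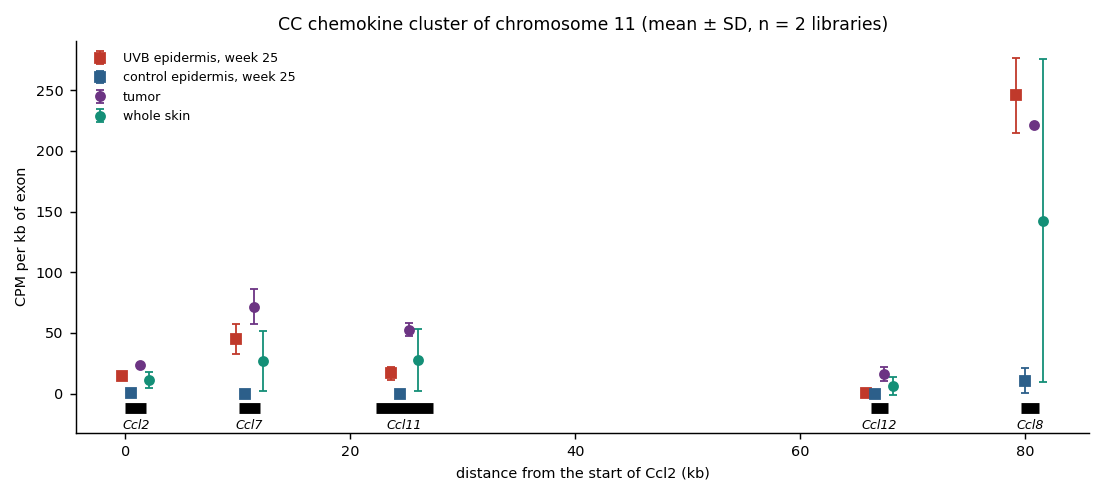
Mean level (CPM per kb of exon, ± SD over 2 libraries) of the 5 CC chemokine genes of chromosome 11 at week 25, at their distance from the start of Ccl2 in kb (points are offset slightly within a gene, black bars are the genes). Ccl8 stands highest in UVB epidermis and tumor, at 246 and 222 CPM per kb, and Ccl12 is at or near 0 in both kinds of epidermis.

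Ccl20 went the other way. It had 133 and 83 counts in UVB epidermis at week 2 (25.0 and 14.4 CPM), against 271 and 106 in control epidermis (51.5 and 44.9 CPM). At week 15 it was at 21.1 and 15.97 CPM in UVB epidermis, against 34.5 and 29.6 CPM in control epidermis. At week 25 it was at 19.2 and 15.9 CPM in UVB epidermis, against 48.6 and 20.02 CPM in control epidermis. Every exposed library lay below both control libraries of its week. Hair follicle and mast cell genes were among those also lower at week 2, and their part in the Ccl20 difference was not tested. The week 2 median log2 difference was also -2.46 for adipocyte and -2.69 for endothelial genes, but 0.83 for skeletal muscle and 0.24 for keratinocyte genes. Hair follicle genes had medians of -2.88 and -2.29 at weeks 15 and 25, when Ccl20 was not called. Of 14 hair follicle genes 11 were lower at week 2, where 9.74% of all genes were. Their sums were 481 and 117 CPM in UVB epidermis, against 2812 and 2849 CPM in control epidermis. Mast cell genes summed to 2.07 and 3.99 CPM in UVB epidermis, against 60.3 and 91.4 CPM in control epidermis, and both of the 2 tested were lower. The log2 difference of Ccl20 was -1.33 ± 0.39 at week 2 (edgeR adjusted p = 0.0399), and -0.80 ± 0.38 at week 15 and -0.99 ± 0.39 at week 25, which were not called (edgeR adjusted p = 0.272 and 0.0887). The week 2 call ended on leaving out any of its 4 libraries, with edgeR adjusted p = 0.0919 without control 0, 0.0921 without control 1, 0.0535 without UVB 0 and 0.254 without UVB 1. Without control 1 the week 25 value was -1.50 and was called (edgeR adjusted p = 0.0356).

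With week as an additive term, the mean effect of UVB over the 3 weeks had 4 genes higher and 1 lower, against 29.5% of all genes called (14.4% higher and 15.1% lower). Ccl20 fell by 1.04 ± 0.22 on the log2 scale (edgeR adjusted p = 0.00454). Ccl2 (4.13 ± 0.63), Ccl8 (2.95 ± 0.70) and Ccl11 (4.99 ± 0.87) rose, with edgeR adjusted p = 0.000795, 0.00844 and 0.00151. These calls and that of Ccl7 held in all 18 alternatives. Ccl27a (0.68 ± 0.32) and Cxcl1 (0.37 ± 0.59) were not called, with edgeR adjusted p = 0.127 and 0.663. Ccl27a was called without week 2 control 0 (1.03, edgeR adjusted p = 0.0143).

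Ccl27a, the keratinocyte chemokine, was called higher at week 25. The difference of its UVB effect between weeks 25 and 15 was not called (edgeR adjusted p = 0.36). It had 73 and 75 counts in UVB epidermis at week 2, against 112 and 22 in control epidermis. At week 15 it had 155 and 120 counts in UVB epidermis (24.2 and 18.6 CPM), against 70 and 109 in control epidermis (13.8 and 17.5 CPM). At week 25 it had 198 and 146 counts in UVB epidermis (30.2 and 26.1 CPM), against 47 and 45 in control epidermis (7.93 and 6.93 CPM). The groups overlapped at week 2 and were furthest apart at week 25, when control epidermis was at its lowest. The log2 difference was -0.27 ± 0.34 at week 2 (edgeR adjusted p = 0.594), 0.43 ± 0.32 at week 15 (edgeR adjusted p = 0.495) and 1.89 ± 0.34 at week 25 (edgeR adjusted p = 0.00585). Without control 1 the week 25 value was 1.79 (edgeR adjusted p = 0.0514). Values of Ccl27a are uncertain, since 45.0% of its 50-base transcript windows occur in near-identical genes such as Ccl27b, which had 0 counts in all 16 libraries, and its end overlaps Il11ra1.

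The neutrophil chemokines were low in epidermis, and of the 3 only Cxcl1 passed the filter there. Cxcl1 had 3 and 4 counts in UVB epidermis at week 2, against 1 and 0 in control epidermis. The counts were 11 and 2 in UVB epidermis at week 15, against 5 and 11 in control epidermis, and at week 25 they were 12 and 4 in UVB epidermis, against 8 and 2 in control epidermis. Cxcl1 was not called at any week (edgeR adjusted p = 0.35, 0.806 and 0.641 at weeks 2, 15 and 25). Its groups were apart at week 2, at a ratio of 4.82 (counting interval 0.619 to 217), and overlapped at weeks 15 and 25. Cxcl2 had at most 4 counts in any epidermis library. At week 25 it had 4 and 2 counts in UVB epidermis, against 0 and 0 in control epidermis, at least 2.04-fold higher and not tested. Cxcl5 had at most 1 count. At this depth a difference in Cxcl2 or Cxcl5 between exposed and control epidermis was not detectable at weeks 2 and 15.

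**Figure D3:**
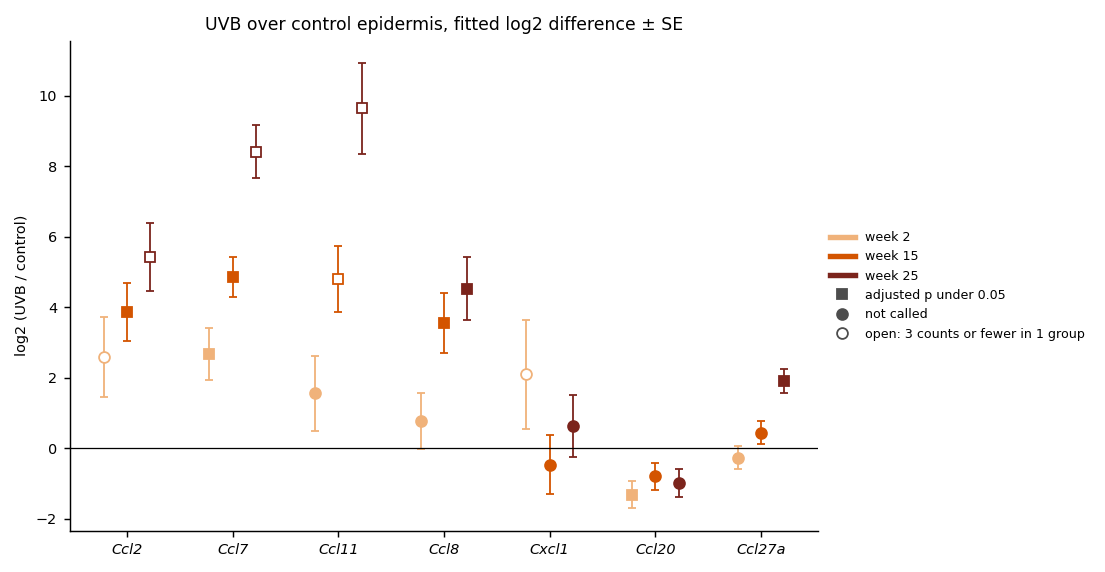
Fitted log2 difference (vertical axis, ± SE) of UVB over control epidermis for the 7 genes that passed the filter, at weeks 2, 15 and 25 (colours). Squares are called at an adjusted p under 0.05, circles are not, and open symbols have 3 counts or fewer in 1 of the groups, so that their height depends on the prior count of the fit. Ccl2, Ccl7, Ccl11 and Ccl8 lie above 0 at all 3 weeks and Ccl20 below 0.

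The effect of UVB differed between week 25 and week 2 for 2 of the 7 genes, both higher, against 7.92% of all genes tested (3.33% higher and 4.59% lower). Ccl7 differed by 5.74 ± 1.47 on the log2 scale (edgeR adjusted p = 0.0395), a size that depends on the prior count because control epidermis held 1 count at week 25. Ccl27a differed by 2.16 ± 0.48 (edgeR adjusted p = 0.0248). For Ccl8 the difference was 3.75 ± 1.18 (edgeR adjusted p = 0.0726), and for Ccl11 the edgeR adjusted p was 0.0566. DESeq2 called Ccl11 (adjusted p = 0.00175). Without week 2 control 0 edgeR called Ccl11 (adjusted p = 0.0253), and without week 2 control 1 it called Ccl8 (adjusted p = 0.0415). Between weeks 15 and 2, and between weeks 25 and 15, edgeR called 0 of the 7 genes and 0 of all genes (0% each), with 1 and 2 of the 7 at an unadjusted p under 0.05. DESeq2 also called 0 of the 7 in both.
Leaving out 1 library ended the Ccl7 call each time, with edgeR adjusted p = 0.156 and 0.0813 without week 2 control 0 and 1, 0.0777 and 0.0613 without week 2 UVB 0 and 1, 0.0566 and 0.122 without week 25 control 0 and 1, and 0.0775 and 0.0824 without week 25 UVB 0 and 1. The Ccl27a call ended without week 2 UVB 0 (0.0814) or 1 (0.0916), week 25 control 0 (0.0584) or 1 (0.0974), and week 25 UVB 0 (0.0921) or 1 (0.066).

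Within exposed epidermis, week 25 stood above week 2 for Ccl7 by 3.35 ± 0.47 (edgeR adjusted p = 0.0159) and for Ccl11 by 3.37 ± 0.70 (edgeR adjusted p = 0.0307) on the log2 scale, 2 of 7 genes where 4.52% of all genes were called (4.04% higher and 0.482% lower). The 2 weeks were apart for 7 of the 10 genes, all higher at week 25, where 63.0% of all genes tested were. Ccl2 (2.24 ± 0.72), Ccl8 (1.89 ± 0.76) and Ccl27a (1.08 ± 0.33) were not called (edgeR adjusted p = 0.0974, 0.173 and 0.0822). The calls of Ccl7 and Ccl11 ended on leaving out any of the 4 UVB libraries, as did most calls over all genes. In these fits the log2 difference ran from 2.87 to 4.09 for Ccl7 and from 2.99 to 3.67 for Ccl11. In control epidermis, week 25 against week 2 gave 0 of 7 genes by edgeR, with 1 at an unadjusted p under 0.05, and 1 by DESeq2, where edgeR called 13.7% of all genes (8.47% higher and 5.24% lower). The weeks were apart in control epidermis for 5 of the 10 genes, 1 higher and 4 lower at week 25, where 64.8% of all genes tested were. Ccl27a came nearest, at -1.08 ± 0.35 (edgeR adjusted p = 0.0584), and was called without week 2 control 1 (-1.50, edgeR adjusted p = 0.0314).

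In tumor, the neutrophil chemokines and Ccl12 stood far above exposed epidermis, while Ccl2, Ccl7 and Ccl8 were not called against it. Of the 10 genes, all of which passed the filter over 16 libraries, 4 were higher and 1 lower than in UVB epidermis of week 25, where 29.5% of all 15126 genes were called (16.8% higher and 12.7% lower). Ccl12, Cxcl2 and Cxcl5 failed the filter in epidermis and passed here through tumor and whole skin, where they were high, so 3 of the 4 higher calls follow from how the genes were kept and the count is a description. Tumor and UVB epidermis were apart for all 10 genes, 7 higher and 3 lower in tumor, where 77.1% of all genes were. Cxcl2 had 329 and 502 counts in tumor (47.4 and 69.3 CPM), against 4 and 2 in UVB epidermis. Cxcl5 had 78 and 95 counts in tumor (11.2 and 13.1 CPM), against 0 and 0 in UVB epidermis. Cxcl1 had 49 and 64 counts in tumor (7.06 and 8.83 CPM), against 12 and 4 in UVB epidermis. None of these groups overlapped. The log2 difference of Cxcl2 was 6.83 ± 0.92 (edgeR adjusted p = 0.000209), and Cxcl5 was at least 49.4-fold higher (edgeR adjusted p = 0.000635). Both calls held in all 10 alternatives, but their direction was set by how these genes were kept, so this is a description. A share of 5.84% of the 50-base transcript windows of Cxcl2 occur in Cxcl3, another neutrophil chemokine, which had 125 and 79 counts in tumor, against 7 and 1 in UVB epidermis. The log2 difference of Cxcl1 was 2.60 ± 0.70 (edgeR adjusted p = 0.013), a call that ended without UVB epidermis 1 (0.144) and without tumor 1 (0.0747).

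Ccl12 had 46 and 78 counts in tumor (6.63 and 10.8 CPM), against 3 and 0 in UVB epidermis, a ratio of 35.4 (counting interval 11.8 to 174, edgeR adjusted p = 0.0221). DESeq2 did not call it (adjusted p = 0.553), and the edgeR call ended on leaving out any of the 4 libraries (0.0527 without UVB epidermis 0, 0.144 without UVB epidermis 1, 0.052 without tumor 0 and 0.0908 without tumor 1). Ccl20 had 39 and 40 counts in tumor (5.62 and 5.52 CPM), its lowest level in the 8 groups, against 126 and 89 in UVB epidermis (19.2 and 15.9 CPM). It fell by 1.65 ± 0.47 on the log2 scale (edgeR adjusted p = 0.0167), a call lost without UVB epidermis 0 (0.075), UVB epidermis 1 (0.0509), tumor 0 (0.0867) or tumor 1 (0.0917).

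Ccl2 had 131 and 136 counts in tumor (18.9 and 18.8 CPM), against 70 and 70 in UVB epidermis (10.7 and 12.5 CPM). Ccl7 had 340 and 474 counts in tumor (49.0 and 65.4 CPM), against 188 and 239 in UVB epidermis (28.7 and 42.7 CPM). Ccl11 had 363 and 440 counts in tumor (52.3 and 60.7 CPM), against 90 and 124 in UVB epidermis (13.7 and 22.1 CPM). For all 3 both tumor libraries were higher, without reaching the threshold: 0.70 ± 0.65, 0.68 ± 0.56 and 1.66 ± 0.67 on the log2 scale (edgeR adjusted p = 0.463, 0.402 and 0.0848). Ccl8 had 784 and 822 counts in tumor (113 and 113 CPM), against 749 and 766 in UVB epidermis (114 and 137 CPM), a log2 difference of -0.15 ± 0.80 (edgeR adjusted p = 0.913). Its tumor level was 1.53 and 1.61 counts per base, ranks 17 and 16 among genes of at least 500 bases, where the highest gene of each library had 1.90 and 1.98. Ccl8 was 47.1 and 42.2% of the cluster's counts in tumor, below its share in every exposed epidermis library. Ccl27a was at 23.2 and 24.6 CPM in tumor, against 30.2 and 26.1 CPM in UVB epidermis (log2 -0.24 ± 0.34, edgeR adjusted p = 0.653).

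Against whole skin, edgeR called 0 of the 10 genes in tumor, as it called 0 of all 14661 genes (0%), in a fit with 2 residual degrees of freedom. At an unadjusted p under 0.05 there were 3 of the 10 and 813 of all genes, and DESeq2 called 0 of the 10 and 66 of all genes. Cxcl2 was at 47.4 and 69.3 CPM in tumor, against 4.75 and 25.5 CPM in whole skin. Cxcl5 was at 11.2 and 13.1 CPM in tumor, against 1.24 and 4.82 CPM in whole skin. Ccl20 was at 5.62 and 5.52 CPM in tumor, against 30.6 and 13.02 CPM in whole skin. These 3 had the smallest p-values, at 1.90 ± 0.74, 1.98 ± 0.69 and -2.06 ± 0.53 on the log2 scale, and in none did the groups overlap. In 7 of the 10 genes both tumor libraries were above both whole skin libraries and in 1, Ccl20, below, where 34.7% of all genes had groups that did not overlap. Ccl8 (113 and 113 CPM in tumor, 24.7 and 121 CPM in whole skin) and Ccl27a (23.2 and 24.6 CPM in tumor, 16.9 and 25.9 CPM in whole skin) overlapped. Without 1 library, the log2 difference ran from 1.13 to 3.53 for Cxcl2, 1.27 to 3.20 for Cxcl5 and -2.53 to -1.29 for Ccl20. In fits without a whole skin library, calls rose over all genes as over the chemokine genes. There the remaining whole skin library is assumed to vary like the tumor libraries.

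**Figure D4:**
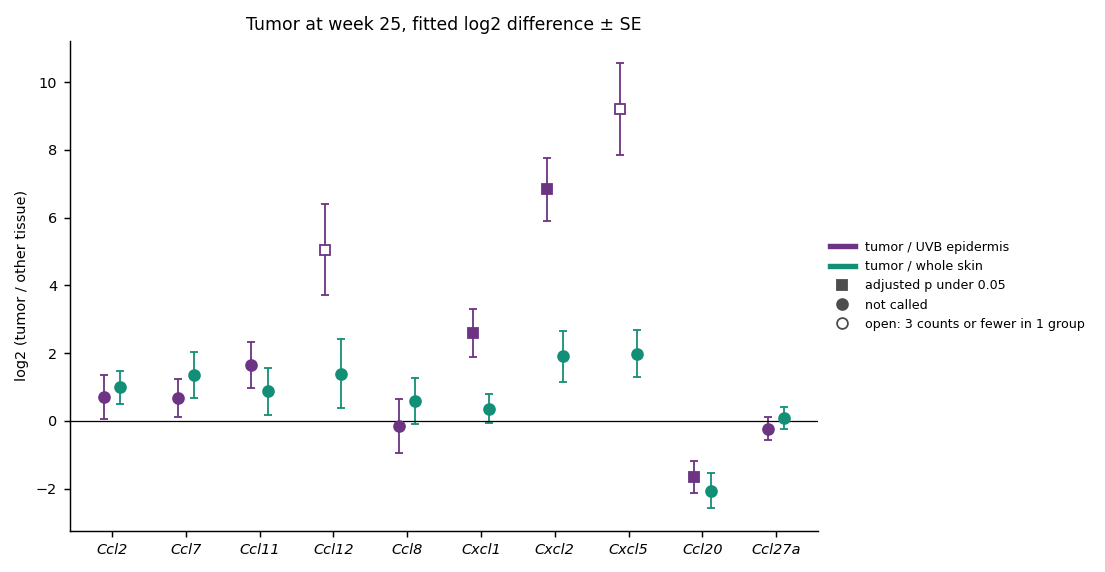
Fitted log2 difference (vertical axis, ± SE) of tumor over UVB epidermis (purple) and over whole skin (green) at week 25. Squares are called at an adjusted p under 0.05, circles are not, and open symbols have 3 counts or fewer in 1 group. Cxcl1, Cxcl2, Cxcl5 and Ccl12 are called above exposed epidermis and Ccl20 below it, and no gene is called against whole skin.

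Unexposed whole skin itself held most of these transcripts. Against control epidermis of week 25, 9 of the 10 genes were higher, where 55.6% of all genes were called (31.9% higher and 23.7% lower), and the groups were apart for 9, where 74.9% of all genes were. Ccl12, Cxcl2 and Cxcl5, at 0 counts in this control epidermis, passed the filter through whole skin and tumor, so their calls had to be higher and the count is a description. Ccl11 was also at 0 counts there, so its call could only be higher, and Ccl2 and Ccl7 held 3 and 1 counts there in all. Ccl7 had 73 and 200 counts in whole skin, against 1 and 0 in control epidermis, a ratio of 222 (counting interval 39.5 to 8790, edgeR adjusted p = 6.15e-05). Ccl11 had 98 and 277 counts in whole skin, against 0 and 0 in control epidermis, at least 102-fold higher (edgeR adjusted p = 0.000111). Cxcl2, with 46 and 143 counts in whole skin and 0 and 0 in control epidermis, was at least 51.2-fold higher (edgeR adjusted p = 0.000183). Ccl20 was the exception, at 30.6 and 13.02 CPM in whole skin and 48.6 and 20.02 CPM in control epidermis (log2 -0.64 ± 0.43, edgeR adjusted p = 0.223). It was called lower without control epidermis 1 (0.0442) and without whole skin control 0 (0.0256). The call of Ccl8 (log2 3.76 ± 0.97, edgeR adjusted p = 0.00513) ended without control epidermis 1 (0.0566) and without whole skin control 1 (0.0599). The call of Cxcl1 (2.81 ± 0.74, edgeR adjusted p = 0.00604) ended without control epidermis 1 (0.0738). The call of Ccl12 (5 and 34 counts in whole skin, 0 and 0 in control epidermis, edgeR adjusted p = 0.0184) ended without control epidermis 0 (0.0659) or 1 (0.0761) and without whole skin control 1 (0.0894), and DESeq2 did not call it (adjusted p = 0.331).

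The order of levels over the 8 groups set the genes apart. Mean CPM of Ccl2, Ccl7, Ccl11, Ccl12, Cxcl1, Cxcl2 and Cxcl5 was highest in tumor. Whole skin came second for Ccl11, Ccl12, Cxcl1, Cxcl2 and Cxcl5, and UVB epidermis of week 15 or 25 for Ccl2 and Ccl7. Ccl8 and Ccl27a were highest in UVB epidermis of week 25, at 126 ± 15.9 and 28.2 ± 2.93 CPM (SD, n = 2), with tumor next at 113 ± 0.313 and 23.9 ± 0.961 CPM. Ccl20 was highest in control epidermis of week 2, at 48.2 ± 4.72 CPM, and lowest in tumor, at 5.57 ± 0.0713 CPM. For Ccl2, UVB epidermis of weeks 15 and 25 and whole skin overlapped, as did all 3 control epidermis groups. For Ccl20, each neighbouring pair in the order overlapped except UVB epidermis of week 25 and tumor.

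Some receptors of these chemokines were also higher in exposed epidermis. Of 10 receptor genes tested, 0 were called at week 2, where 17.8% of all genes were. At week 15, 2 were higher, against 1.85% of all genes, and at week 25, 5 were higher, against 10.6%, and none was lower at these weeks. Ccr1, Ccr2 and Ccr3 were under the filter's minimum count of 10 in control epidermis at week 25, so these counts are a description. Their median log2 difference was 0.95, 0.41 and 1.16 at weeks 2, 15 and 25, against -0.03, -0.01 and 0.01 over all genes. Ccr2, the receptor of Ccl2, Ccl7 and Ccl12, had 79 and 50 counts in UVB epidermis at week 25, against 5 and 3 in control epidermis, a log2 difference of 3.95 ± 0.55 (edgeR adjusted p = 0.00255). Ccr1 had 41 and 30 counts in UVB epidermis at week 25, against 0 and 1 in control epidermis, a ratio of 72.6 (counting interval 12.6 to 2907, edgeR adjusted p = 0.00212). Ccr3, the receptor of Ccl11, had 27 and 15 counts in UVB epidermis at week 25, against 0 and 0 in control epidermis, at least 14.3-fold higher (edgeR adjusted p = 0.0108). Ackr3, a scavenging receptor, was higher by 1.86 ± 0.45 (edgeR adjusted p = 0.0182). Ccr2 and Ccr1 were also the 2 receptors called at week 15, at 2.31 ± 0.53 for Ccr2 (edgeR adjusted p = 0.0439).

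Cxcr2, the neutrophil chemokine receptor, took another course. It was at 54.8 and 60.4 CPM in UVB epidermis at week 25, against 40.1 and 75.3 CPM in control epidermis (log2 -0.03 ± 0.30, edgeR adjusted p = 0.95). It was at 28.5 and 32.0 CPM in tumor and at 1.65 and 13.9 CPM in whole skin, so the tissue with the least Cxcr2 was not the one with the least Cxcl2. Whole skin held 2.98 ± 0.61 less than control epidermis on the log2 scale (edgeR adjusted p = 0.00116). Csf3r, a receptor that marks neutrophils, had 2 and 3 counts in UVB epidermis at week 25, against 0 and 0 in control epidermis, and at most 15 counts in any epidermis library, while Cxcr2 had 106 to 564. Ccr6, the Ccl20 receptor, had at most 5 counts in any library other than whole skin control 0, which had 19. Ccr10, the Ccl27a receptor, had at most 21 and Ccr8, the receptor of mouse Ccl8, at most 24.

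Among 27 other chemokine genes, 13 were tested in epidermis. At week 25, 3 were higher and 0 lower, a share near the 21.5% of all genes called. They were Cxcl10, Cxcl9 and Cxcl11, which draw activated T cells. Cxcl10 had 215 and 174 counts in UVB epidermis, against 15 and 3 in control epidermis (log2 4.397 ± 0.681, edgeR adjusted p = 0.00343). At weeks 2 and 15, Cxcl9 and Cxcl10 were higher and Ccl6 lower. In tumor against UVB epidermis, 10 of 21 tested were higher and 1, Ccl22, lower, where 29.5% of all genes were called (16.8% higher and 12.7% lower). More of the 27 were tested here than in epidermis, since some passed the filter only through tumor or whole skin, so this count is a description. Unexposed whole skin was nearer to tumor in the sum of the 27 genes. It held 625 and 706 CPM, against 764 and 941 CPM in tumor and 434 and 412 CPM in UVB epidermis of week 25. Ccl9 had 665 and 729 counts in tumor, against 21 and 9 in UVB epidermis (log2 5.32 ± 0.66, edgeR adjusted p = 8.46e-05), and Pf4 had 171 and 266 in tumor, against 2 and 2 in UVB epidermis (6.45 ± 0.92, edgeR adjusted p = 0.000409).

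Of 14 tested cytokines and receptors that can induce chemokines, 3 were higher at week 25 and 0 lower, a share near the 21.5% of all genes called. Il1b, an inducer of Cxcl1 and Ccl2, had 146 and 137 counts in UVB epidermis, against 10 and 17 in control epidermis (log2 3.39 ± 0.33, edgeR adjusted p = 0.00072). Il33, an alarm cytokine of epithelium, was at 176 and 172 CPM in UVB epidermis, against 21.9 and 34.5 CPM in control epidermis (2.59 ± 0.36, edgeR adjusted p = 0.00227), and Il4ra was higher by 1.02 ± 0.19 (edgeR adjusted p = 0.00718). A list of 20 NF-kappaB feedback and interleukin-17 target genes had 3 higher (S100a8, S100a9 and Icam1) and 2 lower (Rel and Zc3h12a) at week 25. This was near the 21.5% of all genes called. The median log2 difference of the list was -0.01, against 0.01 over all genes. In tumor against UVB epidermis, Il1b was at 67.4 and 100 CPM in tumor, against 22.3 and 24.5 CPM in UVB epidermis (1.84 ± 0.53, edgeR adjusted p = 0.0176).

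Markers of some other cell types were higher at week 25, and their part in the chemokine differences was not tested. At week 15 the median log2 difference was -0.59 for fibroblast, -0.88 for T cell and -2.54 for mast cell genes. It was 0.81 for Langerhans and dendritic cell genes and 0.92 for neutrophil genes. At week 2 it was -0.15 for macrophage and -2.31 for fibroblast genes. Summed over 13 macrophage and monocyte genes, UVB epidermis of week 25 held 433 and 380 CPM, against 175 and 192 CPM in control epidermis. Of 12 tested, 9 were higher and 0 lower. Over all genes tested at week 25, 10.6% were higher and 10.9% lower. Summed over 12 fibroblast genes, UVB epidermis of week 25 held 276 and 145 CPM, against 71.2 and 73.2 CPM in control epidermis, and 7 of 9 tested were higher. The fibroblast sums at week 2 were 75.1 and 82.5 CPM in UVB epidermis, against 84.6 and 124 CPM in control epidermis, and at week 15 they were 117 and 127 CPM in UVB epidermis, against 69.9 and 141 CPM in control epidermis. Macrophage sums at week 15 were 305 and 354 CPM in UVB epidermis, against 178 and 248 CPM in control epidermis. At week 15, 1 of 12 macrophage genes (Cd163) was called higher, where 3.49% of all genes were called, while 11 of the 12 had a log2 difference above 0 and their median was 1.35. Of 4 neutrophil genes 2 were called higher at week 15, and of 9 fibroblast genes 1 was higher and 1 lower. Langerhans and dendritic cell genes summed to 998 and 1005 CPM in UVB epidermis at week 25, against 627 and 468 CPM in control epidermis, and 7 of 10 tested were higher and 0 lower.

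Eosinophil markers were sparse in epidermis. The 9 eosinophil genes summed to 1.01 to 4.27 CPM in epidermis, with Ear2 at 0 in all 16 libraries, Epx at 0 or 1 count and Prg2 at 6 counts or fewer. The neutrophil sums (12 genes found of 13) were 180 and 126 CPM in UVB epidermis at week 25, against 22.6 and 24.3 CPM in control epidermis. Of 4 tested genes 3 were higher, where 10.6% of all genes were. Of the 12 genes, 7 and 8 were at 0 in the 2 control epidermis libraries of week 25 and only 4 passed the filter, so this count is a description. Stfa2, a neutrophil-list gene whose family members are near-identical, made up 91.6 and 102 CPM of the exposed sums. In tumor, the macrophage genes summed to 1029 and 1295 CPM, against 523 and 922 CPM in whole skin, and the neutrophil genes to 343 and 362 CPM, against 44.9 and 240.9 CPM in whole skin. Fibroblast genes summed to 1529 and 2023 CPM in tumor, against 799 and 1567 CPM in whole skin. Whole skin control 0 was the lower of its group in all 3 of these sums and in 8 of the 10 chemokine genes.

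**Figure D5:**
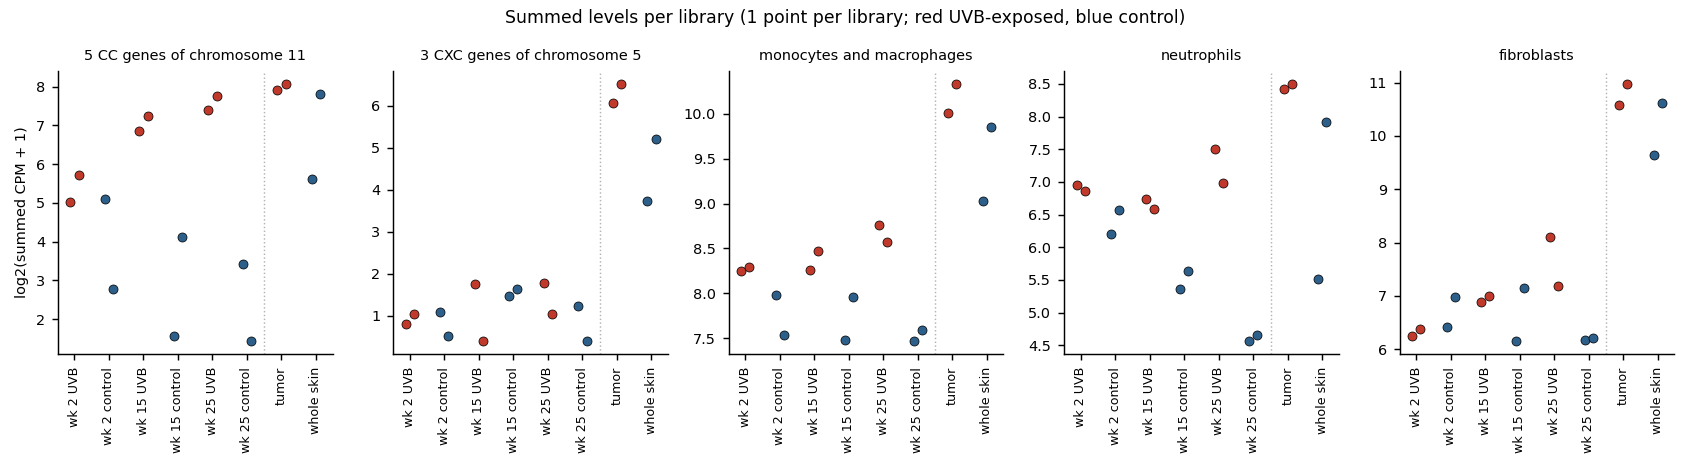
Summed CPM per library, as log2(sum + 1) on the vertical axes (which do not start at 0), for the 5 CC genes of chromosome 11, the 3 CXC genes of chromosome 5 and the macrophage, neutrophil and fibroblast marker lists in the 8 groups (red UVB-exposed, blue control). The CC sum is apart between exposed and control epidermis at weeks 15 and 25, and the CXC sum is high in tumor and whole skin only. Macrophage and neutrophil sums are highest in tumor, and fibroblast sums of tumor and whole skin overlap.

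Over the 16 libraries, log2(CPM + 0.5) of Ccl2 and Ccl7 had a Pearson correlation of 0.97, Ccl7 and Ccl11 0.96, and Ccl2 and Ccl8 0.94. Ccl12 went with Cxcl2 and Cxcl5 (0.97 with each) more closely than with its neighbours Ccl11 (0.76) and Ccl8 (0.49). Ccl20 had negative values with the 9 others, -0.80 to -0.49. The libraries share tissue, treatment and week, so these values describe the groups as much as the genes. Of 13691 other genes, those most like Ccl7 were Tnc (0.98), Scimp (0.97) and Casp6 (0.96), and those most like Ccl11 were Chst2, Mnda and Ifit2 (0.98, 0.98 and 0.97). For Ccl2 they were Postn, Tnc and Gbp3 (0.97, 0.97 and 0.96) and for Ccl8 Bcl2l15, Ifi35 and Socs1 (0.95, 0.92 and 0.92). Clec4e came nearest to Cxcl2 (0.99), C6 to Cxcl5 (0.99), Gja5 to Ccl12 (0.99) and Zkscan17 to Cxcl1 (0.96). Skint5, a gene of mouse epidermis, was most like Ccl20 (0.91) and Galt most like Ccl27a (0.91).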

How the data were processed

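RNA was sequenced from 16 skin libraries, 2 in each of 8 groups. Per the submitters' processing notes, HISAT2, Picard, featureCounts and DESeq2 were used with mm10. The authors removed duplicates before counting, per the file headers, and deposited whole-number counts per gene, with coordinates and exon length. The sources used here do not give versions, strandedness, the treatment of multi-mapping reads or the gene annotation's release. Transcripts shared between genes were checked in 50-base windows of GENCODE transcripts.

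Low genes were dropped from the deposited counts with filterByExpr (minimum count 10, minimum total 15). TMM scaling and the quasi-likelihood test of edgeR 4.0.16 (R 4.3.3, limma 3.58.1) followed, with Benjamini-Hochberg adjustment across the whole fitted table and calls under 0.05. A single model of all 12 epidermis libraries (13478 genes after filtering) gave the UVB effects by week and their differences, and the mean over weeks had week as an additive term. Tumor and whole skin were fitted on their 4 libraries (14661 genes), and tumor or whole skin against epidermis on all 16 (15126 genes). Standard errors are the size of the log2 difference divided by the square root of F, and fitted differences use a prior count of 0.125. Where a group held 1 to 3 counts in all, a ratio of summed counts with an exact 95% interval is given, and for 0 counts a bound from 3 counts over the group. These cover counting error only, and totals of 2905165 to 7959503 counts limit what could be seen in low genes. CPM was computed with TMM factors taken over the 16 libraries together. No other sample columns were present.

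Alternatives were DESeq2 1.42.0, RLE or no scaling, no filter, a replicate block, other sets of libraries and leaving out each library in turn. The genes, lists and tests were chosen with earlier results of these data known. All 10 genes are named in each comparison or by count. Of each list, the called genes with the smallest p (up to 4) and the receptors of the chemokines are named, and the genes most like a chemokine are those with the highest Pearson correlation of log2(CPM + 0.5) among genes of at least 1 CPM on average, leaving out predicted gene models. Krt5, Acta1, Cxcl3, Ccl22, Icam1, Ear2, Epx, Prg2 and Ccl27b were chosen after their values were seen. The code was tested on simulated data.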

Additional observations from a re-analysis of the deposited data

Results flagged for a closer look

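The effect of UVB in epidermis differed between week 25 and week 2 for 2 of the chemokine genes. For Ccl7 the log2 difference of the effects, week 25 minus week 2, was 5.74 ± 1.47 (edgeR adjusted p = 0.0395). Both exposed libraries were above both control libraries at each week. For Ccl27a it was 2.16 ± 0.48 (edgeR adjusted p = 0.0248). Its exposed libraries lay between the control libraries at week 2 and above both at week 25. Each call ended in at least 6 of the 8 fits without 1 library.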

How the results depend on the processing

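Of 34 called gene results, 17 held in every alternative, 17 were lost in at least 1 and 0 changed sign. Some of these genes had 0 counts in the lower group, such as Ccl11 in control epidermis and Cxcl5 in UVB epidermis of week 25. They passed the filter through other groups, and their sign could not change. The number of sign changes is therefore a description and not a test of these calls. At week 2 the calls higher became 0 with only the 4 libraries or all 16 fitted, and the calls lower 0 with these or no scaling. At week 15 the calls higher became 2 with all 16 libraries. The mean effect of Ccl27a was called with only weeks 15 and 25, chosen after seeing the data (1.16, edgeR adjusted p = 0.0186). At week 25 the calls lower became 1 without the filter or with the replicate block. For week 25 minus week 2 the calls higher became 4 without the filter and 1 with all 16. UVB epidermis of week 25 against week 2 gave 4 higher with DESeq2 or no filter and 5 with its 4 libraries, and control epidermis 1 lower with DESeq2 and 2 without the filter. Tumor against UVB epidermis gave 7 higher with its 4 libraries, and its Ccl8 value turned to 0.018 without scaling. Tumor against whole skin gave 2 higher and 1 lower with the replicate block. In a fit of all 16 libraries without whole skin control 0, chosen after seeing the data, Ccl8 was -0.10 and Ccl27a -0.12. The causes were not tested.

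Leaving out 1 library, calls higher ranged from 0 to 1 at week 2, 1 to 4 at week 15, 3 to 5 at week 25, 4 to 5 for the mean over weeks, 0 to 2 for week 25 minus week 2, 0 to 0 for UVB epidermis of week 25 against week 2, 0 to 7 for tumor against whole skin, 2 to 3 for tumor against UVB epidermis and 6 to 9 for whole skin against control epidermis. Calls lower ranged from 0 to 0 at week 2, 0 to 1 at week 25, 0 to 1 for control epidermis of week 25 against week 2, 0 to 1 for tumor against whole skin, 0 to 0 for tumor against UVB epidermis and 0 to 1 for whole skin against control epidermis.

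Calls over all genes also moved when 1 library was left out, but not always in the direction of the chemokine genes. Without week 2 control 0, calls over all genes rose at week 2, where the calls of Ccl7 and Ccl20 were lost. They also rose in that fit for week 25 minus week 2, where the call of Ccl7 was lost. Without 1 library, these uncalled log2 values changed sign. At week 2 Ccl27a ran from -0.68 to 0.54, and Cxcl1 from -2.10 to 0.28 at week 15 and from -0.22 to 1.97 at week 25. For week 15 minus week 2, Ccl2 ran from -2.92 to 6.44 and Ccl27a from -0.090 to 1.13. For week 25 minus week 2, Ccl2 ran from -1.35 to 6.42 and Ccl20 from -0.18 to 1.10. For week 25 minus week 15, Ccl2 ran from -3.61 to 5.14, Ccl8 from -1.30 to 2.61 and Ccl20 from -0.70 to 0.58. Between weeks 25 and 2, Ccl20 ran from -0.51 to 0.29 in UVB epidermis, and in control epidermis Ccl2 ran from -4.18 to 3.58, Ccl8 from -3.50 to 0.34 and Ccl20 from -1.26 to 0.022. Tumor against whole skin ran from -0.16 to 2.12 for Ccl8 and from -0.18 to 0.41 for Ccl27a, and whole skin against control epidermis from -1.40 to 0.097 for Ccl20.

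Libraries share only a number: over 28 pairs of groups, correlations of same-numbered deviations ran from -0.15 to 0.23, with 7 over 0.1 and 2 under -0.1. With the replicate block the week 15 call of Ccl8 was lost (log2 3.54, edgeR adjusted p = 0.0541), and Ccl11 was called for week 25 minus week 2 (8.27, edgeR adjusted p = 0.0306) and for tumor against UVB epidermis (1.75, edgeR adjusted p = 0.016; 0.0317 without the filter). Without scaling the median over all genes at week 25 was 0.21, against 0.01 with TMM.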
